A study of Mus musculus with 9 samples.

Results

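The rod phototransduction cascade was followed here through 9 genes: Gnat1, Gnb1 and Gngt1, which encode the subunits of rod transducin, Pde6a, Pde6b and Pde6g, which encode the rod cGMP phosphodiesterase, and Grk1, Sag and Rcvrn, which act in switching the response off. Members were chosen by symbol. All probe sets of the array that carried 1 of these symbols alone were taken, which gave 15 of the 45101 probe sets in the table. Of the 15, 14 had a mean signal over the 9 arrays above the filter on dim probe sets (5.91 on the log2 scale, the 40th percentile of all probe set means) and entered the tests, among 27009 probe sets tested. All 15 are described, because several of them gave signals near the top of the array's range.

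In a rod, light converts the visual pigment into a form that activates transducin, and the transducin alpha subunit then relieves the phosphodiesterase of its inhibitory gamma subunits. The phosphodiesterase breaks down cGMP, the cGMP-gated channels of the outer segment close, and the cell hyperpolarises. The signal ends when a kinase phosphorylates the pigment, arrestin caps it and transducin hydrolyses its GTP. Arrestin and transducin also move between the compartments of the rod in opposite directions when light comes on, a movement of protein that does not show in mRNA.

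The 9 arrays measured mRNA of the neurosensory retina. The mice were 10-week-old females of the albino strain BALB/c, which the labels spell Babl/c. The 3 arrays of the 7378K group came from mice kept under cold white light-emitting diodes (LEDs) with a colour temperature of 7378 K, the 3 arrays of the 2954K group from mice under warm white LEDs of 2954 K, both at 1000 lx, and the 3 control arrays from mice in a dark environment. All 3 groups were kept for 14 days, and the labels give each of them 12 h on and 12 h off with no illuminance for the controls, so that the light met by controls was not known. Each array held a pool of 3 right-eye retinas, so n = 3 pools per group, and precision is limited by this number of arrays. No genotype other than the strain was given.

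Arrays had medians of 6.77 to 7.03 on the log2 scale and correlated across probe sets at 0.923 to 0.974 within groups and at 0.908 to 0.971 between groups. The 3′ minus 5′ difference of the Gapdh and beta-actin control probe sets, which grows as RNA or labelled product shortens, was 1.80, 1.67 and 1.55 (log2) on the 7378K arrays, 2.78, 0.21 and 1.05 on the 2954K arrays and 0.33, 0.20 and 0.42 on the control arrays, so that 7378K arrays and control arrays did not overlap. The same difference for dap, a bacterial spike-in and not retinal RNA, was 2.76, 2.70 and 2.77 on the 7378K arrays. It was 3.02, 1.34 and 2.19 on the 2954K arrays and 1.64, 1.37 and 1.81 on the control arrays, again without overlap between 7378K and control. The labelled tissue was borne out by its markers, since the 9 cascade genes and 6 genes of the rod channel and disc were above the filter in every group mean. Summed linear signals of 10 pigment epithelium and melanocyte genes lay at 20710 to 42501 in 7378K, 36203 to 50010 in 2954K and 13844 to 46790 in control arrays. Those of 7 lens genes were 2475 to 7836 in 7378K, 1959 to 24973 in 2954K and 1430 to 135146 in control arrays, highest on the third array of each group, and calls that were lost without the third arrays are given below for the genes named. Summed signals of 9 microglial genes were 9022 to 9782 in 7378K, 8204 to 8888 in 2954K and 2258 to 3347 in control arrays. In bulk tissue, fewer rods and less RNA per rod cannot be told apart.

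Across the cascade, 1 of the 14 tested probe sets changed past the threshold, an adjusted p under 0.05 in limma's moderated test with Benjamini-Hochberg adjustment over the 27009 probe sets. It was the Gnb1 probe set 1417432_a_at, which fell in 7378K against control. That is 7.14% of the members, where 2.2% of all tested probe sets were called in either direction and 0.952% fell. In 2954K against control 0 of the 14 were called, against 0.548% of all probe sets, and in 7378K against 2954K 0 of the 14 were called, as were 0 of all 27009 (0%). At an unadjusted p under 0.05 these limma contrasts had 5 of 14 members in 7378K against control, 3 in 2954K against control and 0 in 7378K against 2954K, where all tested probe sets had 22.1%, 11.7% and 4.98%. With single arrays left out, the count of 1 in 7378K against control became 5 without 2954K 1 and 4 without 2954K 2. All calls rose as well, from 594 of the 27009 to 3401 and 2803. Without any 1 of the 7378K or control arrays the count became 0, with 136 to 305 calls in all. The count of 0 in 2954K against control became 2 without 2954K 2, where all calls rose from 148 to 2154.

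The differences of the members from control were mostly small and below 0. In 7378K against control 11 of the 14 lay below 0, with a median of −0.23 on the log2 scale, where 48.5% of all probe sets lay below 0 with a median of 0.01. In 2954K against control 13 of the 14 lay below 0 with a median of −0.13, where 53.1% of all probe sets did, with a median of −0.02. Bright probe sets as a whole had other medians. At a mean of 12 to 14, a class with 2 members, the median of all was 0.11 in 7378K and 0.07 in 2954K against control. At 14 or more, a class with 9 members, it was 0.13 and 0.08. The 2 comparisons share their control arrays. All 7378K arrays lay below all control arrays for 6 of the 14 members (42.9%), where 18.6% of all probe sets did so, and above them for 1 (7.14%, against 17.6%). All 2954K arrays lay below all control arrays for 2 members (14.3%, against 7.29% of all probe sets) and above them for 0 (against 6.51%). The 14 probe sets belong to 9 genes, so that these counts are not counts of independent genes, and which transcripts each probe set reads was not tested.

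**Figure D1:**
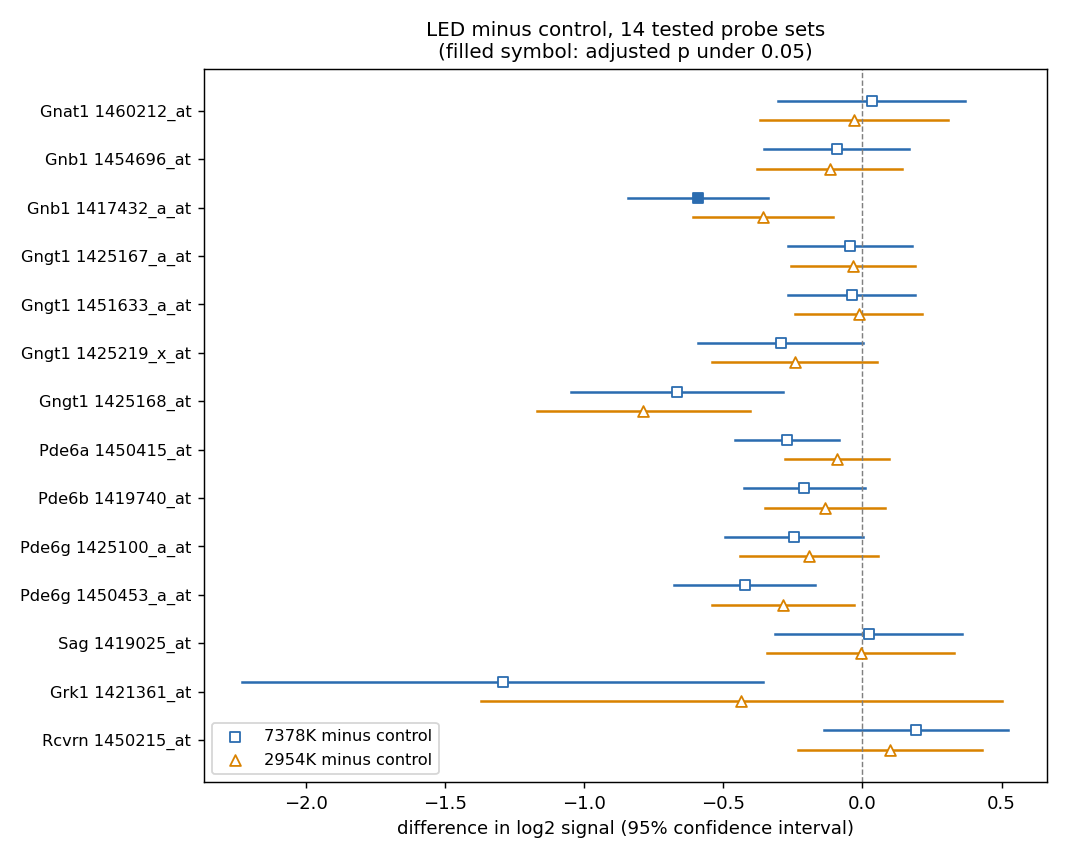
Differences in log2 signal from control, with 95% confidence intervals from limma, for the 14 tested probe sets, with 7378K minus control (squares) above 2954K minus control (triangles). The filled square, Gnb1 1417432_a_at at −0.59, is the only one past the adjusted threshold, and the interval of Grk1 is the widest.

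Transducin alpha, the subunit that binds GTP and activates the phosphodiesterase, was read by 1 probe set of Gnat1. Its log2 signals on replicates 1 to 3 were 14.81, 14.88 and 14.58 in 7378K, 14.98, 14.39 and 14.71 in 2954K and 14.56, 14.69 and 14.91 in control. The 3 groups overlapped fully, and the highest and the lowest of the 9 arrays were both 2954K arrays. Gnat1 differed by 0.03 between 7378K and control (95% confidence interval −0.30 to 0.37, adjusted p = 0.927) and by −0.03 between 2954K and control (−0.37 to 0.31, adjusted p = 0.955). Differences of up to 0.37 upward or −0.37 downward lay within one or the other of these intervals.

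Gnb1 encodes the beta subunit of rod transducin, which keeps the alpha subunit on the membrane together with gamma, and is used by many other cells of the retina as well. Its 3 probe sets did not give the same picture. The brightest, 1454696_at, read 14.58, 14.68 and 14.46 in 7378K, 14.79, 14.42 and 14.44 in 2954K and 14.57, 14.66 and 14.77 in control. Those groups overlapped, and its difference was −0.09 in 7378K against control (adjusted p = 0.686) and −0.12 in 2954K against control (adjusted p = 0.711).

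The probe set 1417432_a_at read 13.77, 13.90 and 13.66 in 7378K, 14.05, 14.16 and 13.81 in 2954K and 14.27, 14.48 and 14.35 in control. Every array of both LED groups lay below every control array, with 2954K between 7378K and control on average. The fall in 7378K against control was −0.59 on the log2 scale (SE 0.11, 95% confidence interval −0.84 to −0.34, 1.51-fold lower, adjusted p = 0.027). In 2954K against control it was −0.36 (−0.61 to −0.11, adjusted p = 0.295) and did not pass, and 7378K against 2954K gave −0.23 (adjusted p = 0.911), so the LED groups were not shown to differ. The call was lost when the 3′ minus 5′ difference entered the fit as a covariate (−0.57, adjusted p = 0.133), without the third arrays (−0.54, adjusted p = 0.248), and without any single 7378K or control array (−0.65 to −0.53, adjusted p 0.0655 to 0.151). The array 2954K 2, whose 3′ minus 5′ difference of 0.21 lay within the control range, read 14.16, below all controls, which is 1 array. This array also had the lowest maximum of all arrays (14.96) and read below all controls for 1454696_at (14.42). Its 1417432_a_at signal lay 0.80 below its own maximum, within the 0.74 to 0.94 of the control arrays. All 7378K arrays had a higher 3′ minus 5′ difference than all control arrays, also for the dap spike-in. The LED light of 7378 K and RNA quality or labelling therefore cannot be told apart here. Microglial signal moved in the same groups, and its part in the result was not tested.

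The third Gnb1 probe set, 1425908_at, was dim, below the filter, and was not tested. It read 6.23, 0.91 and 3.02 in 7378K, 5.70, 5.28 and 1.46 in 2954K and 5.21, 5.92 and 5.30 in control. Its LED arrays spanned several log2 units, so that it carried no usable comparison.

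Gngt1 encodes the gamma subunit of rod transducin, which carries the lipid anchor of the complex, and had 4 probe sets. The brightest, 1425167_a_at, read 14.53, 14.52 and 14.44 in 7378K, 14.70, 14.38 and 14.45 in 2954K and 14.55, 14.57 and 14.50 in control. Its differences were −0.05 in 7378K (95% confidence interval −0.27 to 0.18, adjusted p = 0.833) and −0.03 in 2954K (−0.26 to 0.19, adjusted p = 0.916) against control. The groups overlapped, and so did those of 1451633_a_at, with differences of −0.04 in 7378K (adjusted p = 0.864) and −0.01 in 2954K (adjusted p = 0.969). The probe set 1425219_x_at, of a class whose probes can also bind similar transcripts, read 13.54, 13.92 and 13.69 in 7378K, 13.72, 13.59 and 14.00 in 2954K and 14.10, 14.08 and 13.85 in control, with differences of −0.29 (adjusted p = 0.23) and −0.24 (adjusted p = 0.487).

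The dimmest Gngt1 probe set, 1425168_at, differed more. It read 8.81, 9.10 and 9.22 in 7378K, 8.57, 9.13 and 9.06 in 2954K and 9.69, 9.62 and 9.81 in control, so that no LED array reached the lowest control. The difference was −0.67 in 7378K against control (95% confidence interval −1.05 to −0.28, adjusted p = 0.071) and −0.79 in 2954K against control (−1.17 to −0.41, adjusted p = 0.0952). Neither passed, and 7378K against 2954K gave 0.12 (adjusted p = 0.953). In other fits the 7378K difference shrank to −0.34 with the 3′ minus 5′ difference of dap, a bacterial spike-in, as covariate (adjusted p = 0.765), and it passed at −0.67 in 4 of 18, with adjusted p = 0.0408 with the replicate number as a block, 0.00593 with only the 2 groups compared, 0.0106 without 2954K 1 and 0.0275 without 2954K 2. All calls in those 4 fits numbered 1273, 4806, 3401 and 2803, against 594 as fitted. With the 3′ minus 5′ control-like array 2954K 2 left out, the 2954K difference was −0.89 and passed (adjusted p = 0.0186). The Gnb1 probe set 1417432_a_at also passed there, at −0.43 (adjusted p = 0.0359), in a fit with 2154 calls in all, against 148 as fitted.

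**Figure D2:**
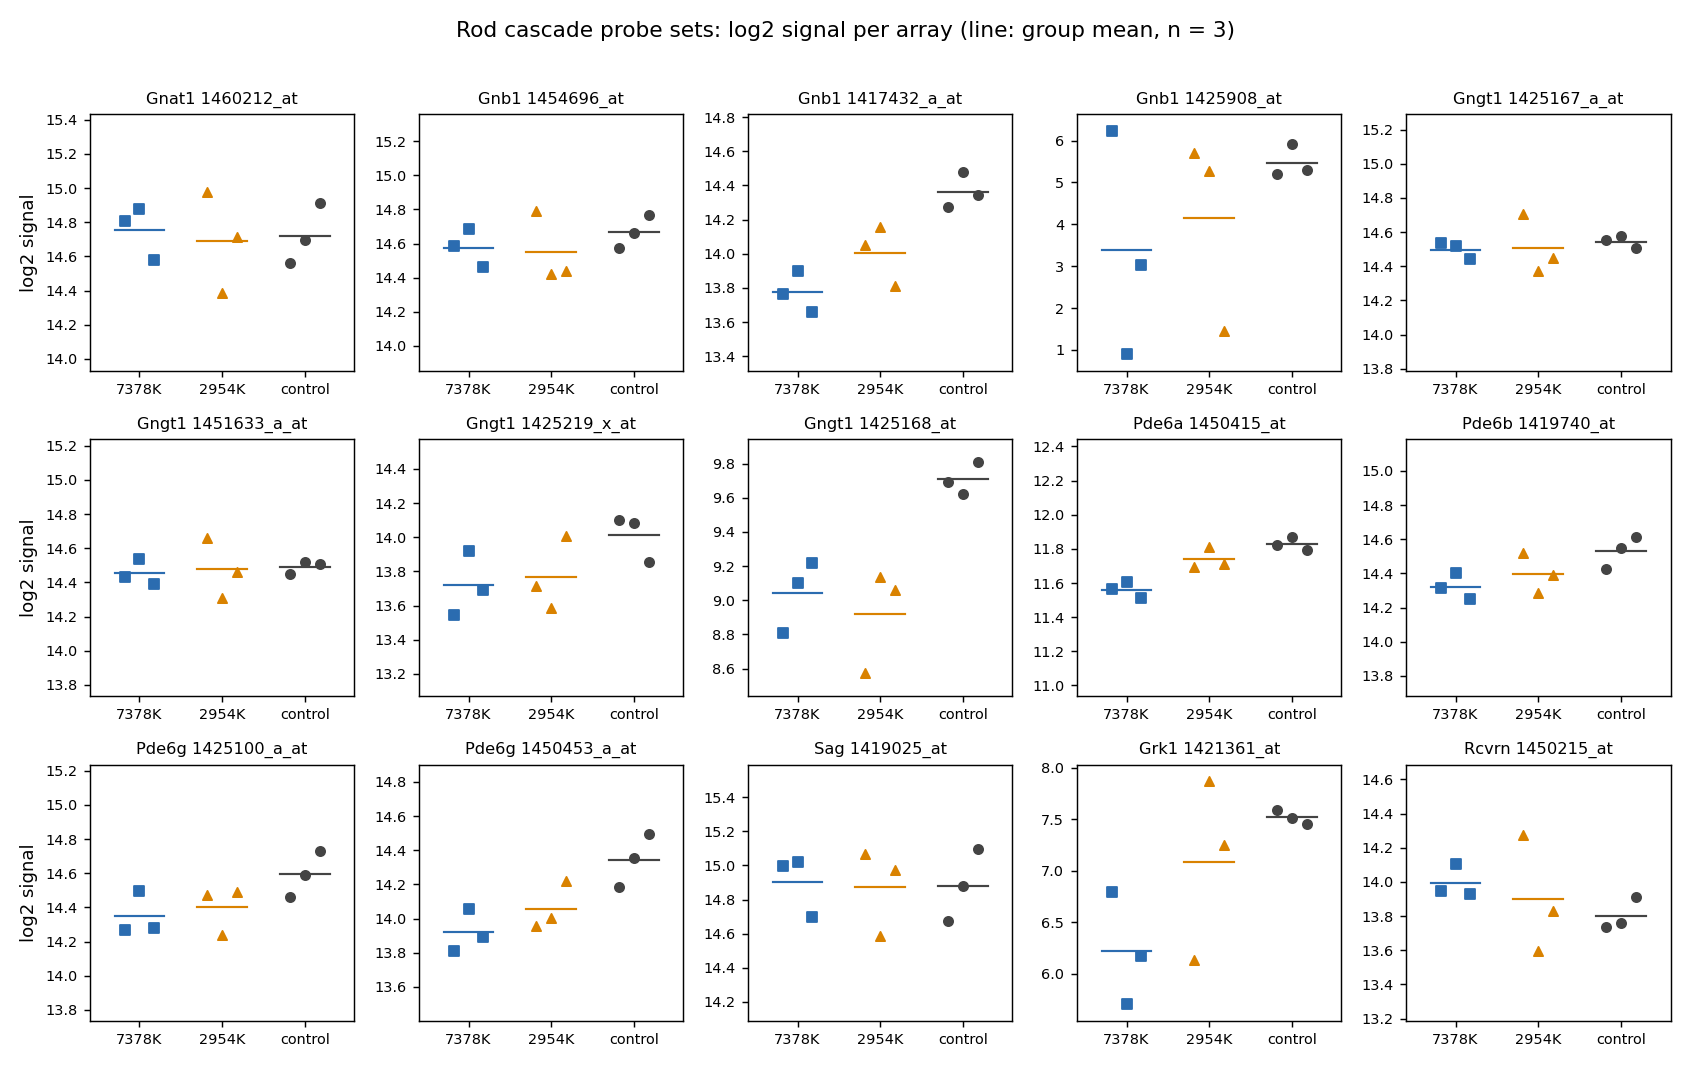
Log2 signal of the 15 probe sets on each array, 1 panel per probe set, with 7378K (squares), 2954K (triangles) and control (circles) from left to right and a line at each group mean (n = 3); the vertical range differs between panels. The 7378K squares lie below all control circles for Gnb1 1417432_a_at, Gngt1 1425168_at, Pde6a, Pde6b, Pde6g 1450453_a_at and Grk1, and above them for Rcvrn.

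The rod phosphodiesterase is a dimer of the catalytic subunits encoded by Pde6a and Pde6b, held inactive by the small gamma subunit encoded by Pde6g. Pde6a read 11.56, 11.61 and 11.51 in 7378K, 11.70, 11.81 and 11.71 in 2954K and 11.82, 11.87 and 11.79 in control. It had the smallest SE of the tested members (0.09), and all 7378K arrays lay below all 2954K and all control arrays. The difference was −0.27 in 7378K against control (95% confidence interval −0.46 to −0.08, adjusted p = 0.105), −0.09 in 2954K against control (adjusted p = 0.691) and −0.18 in 7378K against 2954K (−0.37 to 0.01, adjusted p = 0.911).

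Pde6b read 14.31, 14.40 and 14.25 in 7378K, 14.52, 14.28 and 14.39 in 2954K and 14.43, 14.55 and 14.62 in control. The 7378K arrays again lay below all controls, by a narrow margin, and the 2954K arrays overlapped both. Pde6b differed by −0.21 in 7378K (95% confidence interval −0.43 to 0.01, adjusted p = 0.241) and by −0.13 in 2954K (−0.35 to 0.08, adjusted p = 0.593) against control.

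Pde6g had 2 probe sets. The brighter, 1425100_a_at, read 14.27, 14.49 and 14.28 in 7378K, 14.47, 14.24 and 14.49 in 2954K and 14.46, 14.59 and 14.73 in control, with differences of −0.25 (adjusted p = 0.229) and −0.19 (adjusted p = 0.508). The other, 1450453_a_at, read 13.81, 14.06 and 13.89 in 7378K, 13.96, 14.00 and 14.22 in 2954K and 14.18, 14.35 and 14.49 in control. For this second probe set 7378K did not overlap control, and the difference was −0.42 in 7378K (95% confidence interval −0.68 to −0.17, adjusted p = 0.0775) and −0.29 in 2954K (−0.54 to −0.03, adjusted p = 0.392). None of the 3 phosphodiesterase genes passed the threshold.

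Grk1 encodes the kinase that phosphorylates the light-activated pigment, the first step of shutoff, and in the mouse serves both rods and cones. It was the dimmest of the tested members, and its 7378K mean lay little above the filter. Its probe set read 6.79, 5.70 and 6.17 in 7378K, 6.13, 7.87 and 7.25 in 2954K and 7.59, 7.51 and 7.45 in control. The controls were tight and the LED arrays were not, with an SD of 0.55 in 7378K, 0.88 in 2954K and 0.07 in control. The difference of 7378K from control, −1.29, was the largest in size among the 14 tested probe sets (SE 0.43, 95% confidence interval −2.23 to −0.36, adjusted p = 0.116). With 2954K the difference was −0.43 (−1.37 to 0.50, adjusted p = 0.704). The array 2954K 2, with its control-like 3′ minus 5′ difference, read 7.87, above all controls, and 2954K 1, with the highest 3′ minus 5′ difference of 2.78, read 6.13. Among the 7378K arrays it went the other way, since 7378K 1, with the highest 3′ minus 5′ difference of that group (1.80), had its highest signal (6.79). In 18 other limma fits, the 3′ minus 5′ and dap covariates included, the 7378K difference was −1.58 to −0.21 (adjusted p 0.0185 to 0.949). It lay below 0 in all 18 and passed in 3. The 7378K and control arrays did not overlap on either measure. A part of RNA quality or labelling in the Grk1 signal therefore cannot be told apart from the LED light.

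Sag encodes the rod arrestin, which binds the phosphorylated pigment and blocks further activation of transducin. It read 15.00, 15.02 and 14.70 in 7378K, 15.07, 14.59 and 14.97 in 2954K and 14.68, 14.88 and 15.09 in control. The groups overlapped, with differences of 0.02 in 7378K (95% confidence interval −0.31 to 0.36, adjusted p = 0.952) and −0.01 in 2954K (−0.34 to 0.33, adjusted p = 0.99) against control. Rcvrn encodes recoverin, the calcium sensor that restrains Grk1 in the dark, and read 13.94, 14.11 and 13.93 in 7378K, 14.28, 13.60 and 13.83 in 2954K and 13.73, 13.76 and 13.91 in control. It was the 1 member whose 7378K arrays all lay above all control arrays, and its difference of 0.19 did not pass (−0.14 to 0.52, adjusted p = 0.484). In 19 other limma fits the Rcvrn difference ran from −0.25 to 0.28 and was below 0 in 2.

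Several of these signals lay close to the top of what the arrays reported. Of the 14 tested members, 9 had a mean of 14 or more, a level that 105 of the 27009 tested probe sets reached. Sag ranked 5 to 9 from the top of all probe sets on the 9 arrays and lay 0.20 to 0.45 below each array's highest value, and Gnat1 ranked 12 to 31 and lay 0.38 to 0.71 below it. The highest values themselves were 15.32, 15.34 and 15.09 in 7378K, 15.40, 14.96 and 15.42 in 2954K and 15.06, 15.21 and 15.29 in control. Sag varied over the 9 arrays with an SD of 0.19, but its distance from the array's highest value with an SD of 0.07, and Gnat1 with 0.19 and 0.09. For the other members at 14 or more, the distance varied more than the signal. SDs of signal and distance were 0.14 and 0.15 for Gnb1 1454696_at, 0.28 and 0.36 for 1417432_a_at, and 0.09 and 0.14 for Gngt1 1425167_a_at. They were 0.10 and 0.11 for Gngt1 1451633_a_at and 0.12 and 0.16 for Pde6b. Pde6g had 0.16 and 0.17 for 1425100_a_at, and 0.22 and 0.26 for 1450453_a_at.

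Calls were made at all levels of signal. Among the 105 probe sets at 14 or more, 2 were called in 7378K against control (1.9%), 1 of them fallen and 1 risen. The fallen one was the member Gnb1 1417432_a_at itself, with a mean of 14.05, so it is no separate case beside the cascade. At 12 to 14 the share was 3.97% of 1435 probe sets, at 10 to 12 it was 3.48% of 5633, at 8 to 10 it was 2.26% of 9635, and from the filter to 8 it was 1.19% of 10201. The median SD within groups was 0.17 for the brightest class, 0.14 at 12 to 14 and 0.40 for the dimmest, the class that holds Grk1. Whether the brightest signals still rise in proportion to RNA was not tested.

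Within a gene, probe sets can be set against each other on each array, which removes a difference in scale between arrays but not one in RNA quality, and the 3′ minus 5′ difference separated 7378K from control arrays. The brighter probe set of each pair also lay near the top of the range. For Gnb1, 1417432_a_at minus 1454696_at was −0.80 ± 0.02 in 7378K, −0.54 ± 0.25 in 2954K and −0.30 ± 0.12 in control (SD, n = 3). The change against control was −0.50 in 7378K (two-sided exact permutation p = 0.1, the smallest that 3 against 3 arrays can give) and −0.24 in 2954K (exact p = 0.3). For Gngt1, 1425168_at minus 1425167_a_at was −5.46 ± 0.25 in 7378K, −5.59 ± 0.48 in 2954K and −4.84 ± 0.13 in control, a change of −0.62 and of −0.75 (exact p = 0.1 for both).

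The other pairs moved less. Pde6g 1450453_a_at minus 1425100_a_at changed by −0.18 in 7378K (exact p = 0.1) and by −0.09 in 2954K (exact p = 0.5). Gngt1 1425219_x_at minus 1425167_a_at changed by −0.25 and −0.21 (exact p = 0.2 and 0.4), and 1451633_a_at minus 1425167_a_at by 0.01 and 0.02 (exact p = 0.7 and 0.6). Over the 22 such tests of this kind, cone counterparts included, the smallest adjusted p was 0.275, and with 3 against 3 arrays none could pass 0.05. In 4 of the 5 pairs the mean of the dimmer probe set relative to the brighter was lower in 7378K than in control.

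**Figure D3:**
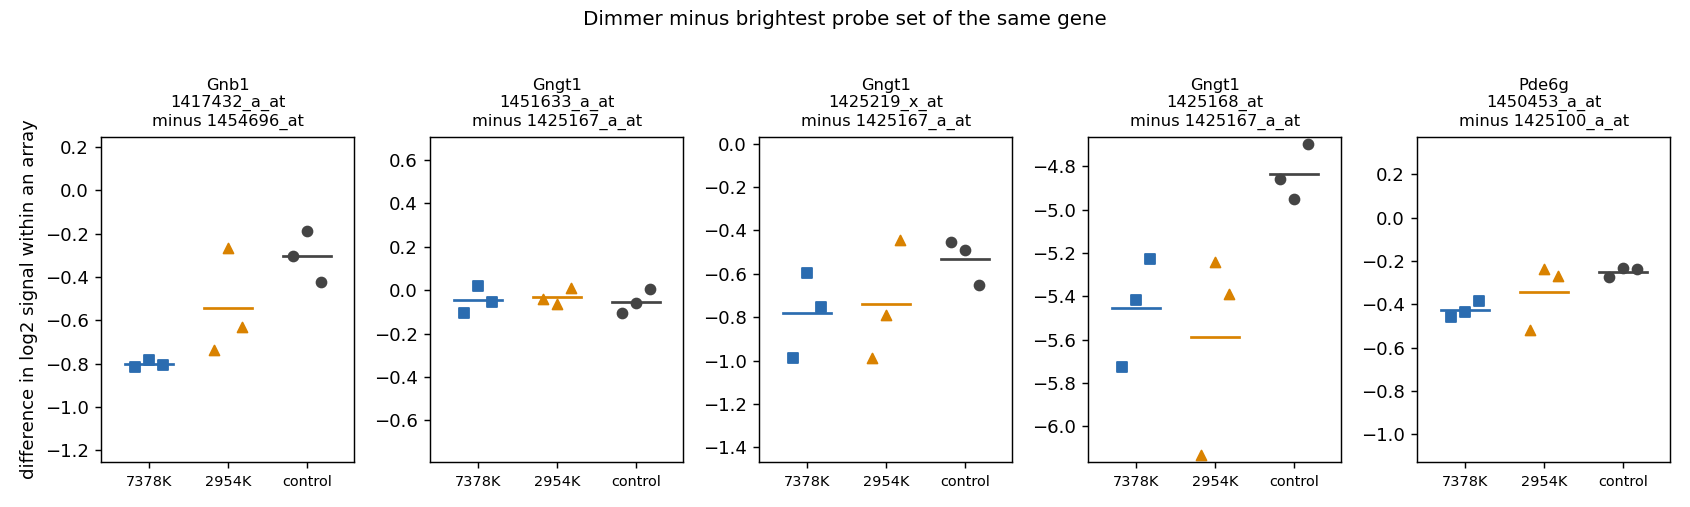
Difference in log2 signal between the dimmer and the brightest probe set of the same gene on each array, for Gnb1, Gngt1 (3 pairs) and Pde6g, with 7378K, 2954K and control from left to right and a line at each group mean (n = 3). The 7378K and control arrays are separate for Gnb1, for Gngt1 1425168_at and for Pde6g, and overlap for Gngt1 1451633_a_at.

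**Figure D4:**
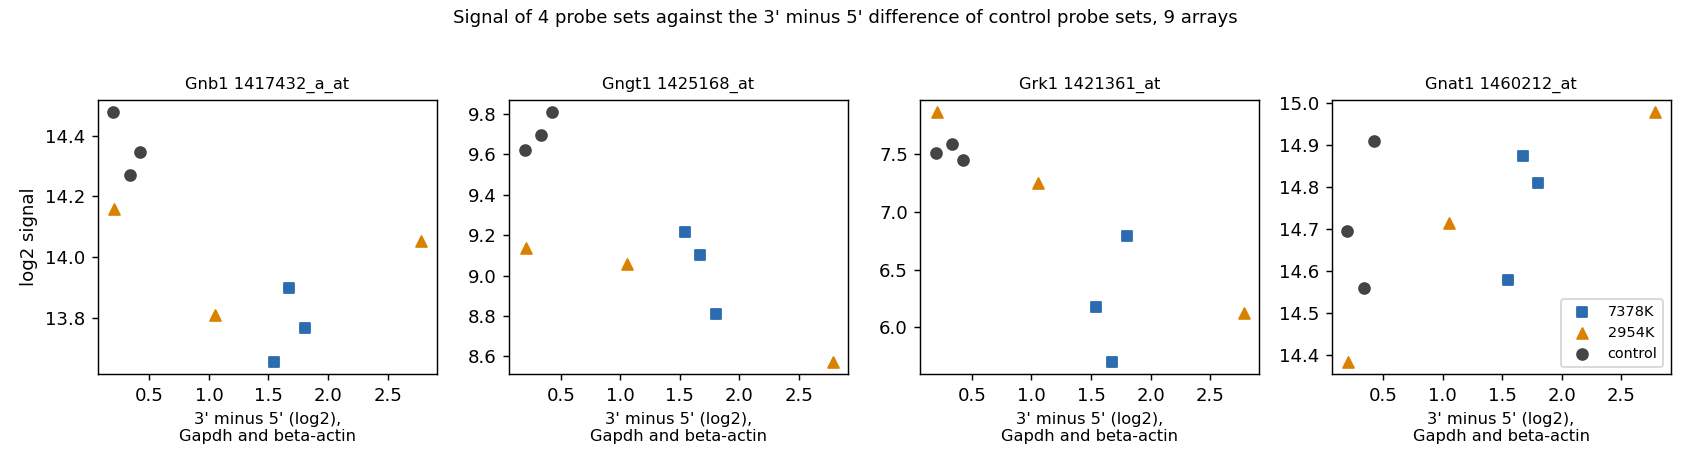
Log2 signal of 4 probe sets against the 3′ minus 5′ log2 difference of the Gapdh and beta-actin control probe sets on the 9 arrays, with 7378K as squares, 2954K as triangles and control as circles. The 7378K and control arrays are separate on the horizontal axis, and 2954K 2, at 0.21, lies among the controls there. In signal 2954K 2 lies below the controls for Gnb1 1417432_a_at, Gngt1 1425168_at and Gnat1, and above them for Grk1. It is also the array with the lowest maximum (14.96).

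The 250 bases before the annotated start are shown for 4 members, taken from RefSeq on build GRCm38.p6, because they set Gnb1, a gene of many tissues whose probe set fell, beside 3 genes of the rod. Windows of 5 members were searched, and those of Gnat1, Pde6a, Pde6g and Rcvrn were not used here. Capitals mark a match to the core letters TAATCC, bound by CRX and read as GGATTA from the other strand, or to TGCTGA, part of the site bound by NRL and read as TCAGCA from the other strand. CRX and NRL are transcription factors of photoreceptors, and both strands were searched. The 2 motifs do not overlap each other in these windows.
Gnb1, chr4:155491111-155491360, + strand: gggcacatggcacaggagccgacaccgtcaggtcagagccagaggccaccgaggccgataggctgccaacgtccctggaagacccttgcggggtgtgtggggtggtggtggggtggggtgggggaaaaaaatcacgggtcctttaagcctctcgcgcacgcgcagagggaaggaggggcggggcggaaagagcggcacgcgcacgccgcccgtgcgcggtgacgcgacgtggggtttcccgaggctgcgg
Gngt1, chr6:3993758-3994007, + strand: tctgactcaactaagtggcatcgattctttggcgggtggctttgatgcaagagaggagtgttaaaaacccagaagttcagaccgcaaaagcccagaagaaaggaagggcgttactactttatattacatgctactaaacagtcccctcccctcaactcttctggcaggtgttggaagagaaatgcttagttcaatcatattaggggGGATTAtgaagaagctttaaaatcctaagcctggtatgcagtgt
Pde6b, chr5:108388123-108388372, + strand: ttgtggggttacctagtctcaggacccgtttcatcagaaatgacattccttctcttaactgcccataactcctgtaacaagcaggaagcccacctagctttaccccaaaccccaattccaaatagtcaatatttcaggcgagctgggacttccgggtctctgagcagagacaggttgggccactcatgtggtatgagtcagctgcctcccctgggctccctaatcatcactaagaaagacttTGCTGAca
Sag, chr1:87803430-87803679, + strand: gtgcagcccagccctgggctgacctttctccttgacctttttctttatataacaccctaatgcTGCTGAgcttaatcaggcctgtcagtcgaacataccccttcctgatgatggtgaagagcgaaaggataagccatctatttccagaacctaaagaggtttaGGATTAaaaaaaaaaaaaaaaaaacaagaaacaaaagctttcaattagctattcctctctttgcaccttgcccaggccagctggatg
The CRX letters were found in 6.25% of all 32851 windows of this length and the NRL letters in 16.1%. Gngt1 held the CRX letters at 44 to 39 bases before the start, Sag held them at 87 to 82 bases and the NRL letters at 187 to 182 bases, and Pde6b held the NRL letters at 8 to 3 bases. Neither was found in these windows of Gnb1 or Grk1, which says only that these letters are not there. The Gnb1 window was 69.2% G or C, above the upper quartile of all windows (61.2%). Pde6b at 49.6% lay below the median of 52.4%, and Gngt1 at 44% and Sag at 42.8% lay below the lower quartile of 45.2%. Grk1, searched but not shown, lay above the median at 56.4%, so the photoreceptor genes did not all lie on one side of it.

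Cones use their own versions of most of these proteins, which gives a comparison within the same arrays. Of 6 cone counterparts, 1 changed, Gnb3, the beta subunit of cone transducin, which is also made in bipolar cells. It read 13.72, 13.77 and 13.72 in 7378K, 13.54, 13.74 and 13.79 in 2954K and 12.67, 12.85 and 12.62 in control, so that both LED groups lay well above control. It rose by 1.02 in 7378K (2.03-fold, adjusted p = 0.000421) and by 0.98 in 2954K (1.97-fold, adjusted p = 0.000956) against control. Without the third arrays the 2954K value was 0.88 and no longer passed (adjusted p = 0.078). Of 4 bipolar cell genes, 0 were called in either comparison, with 0 at an unadjusted p under 0.05 in limma's test.

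The other cone genes did not pass. Gnat2, the cone transducin alpha subunit, differed by 0.01 in 7378K (adjusted p = 0.948) and by 0.05 in 2954K (adjusted p = 0.849) against control. Pde6h, the inhibitory subunit of the cone phosphodiesterase, differed by 0.33 (adjusted p = 0.188) and 0.36 (adjusted p = 0.371), Pde6c, its catalytic subunit, by 0.22 (adjusted p = 0.555) and 0.28 (adjusted p = 0.594), and the dim Gngt2 by −0.35 (adjusted p = 0.627) and 0.17 (adjusted p = 0.888). Arr3, the cone arrestin, differed by −0.69 (adjusted p = 0.15) and −0.51 (adjusted p = 0.46).

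Taken as rod minus cone signal on each array, Gnb1 1454696_at minus Gnb3 was 0.84 ± 0.09 in 7378K, 0.86 ± 0.33 in 2954K and 1.95 ± 0.17 in control, a change of −1.12 and −1.10 (SD, n = 3, exact permutation p = 0.1 for both). Pde6g minus Pde6h changed by −0.58 in 7378K and by −0.55 in 2954K (exact p = 0.1 for both). Pde6b minus Pde6c changed by −0.43 and −0.41 (exact p = 0.3 and 0.2), Gnat1 minus Gnat2 by 0.02 and −0.08 (exact p = 1 and 0.6), Gngt1 minus Gngt2 by 0.31 and −0.20 (exact p = 0.7 and 0.6), and Sag minus Arr3 by 0.72 and 0.50 (exact p = 0.2 and 0.4). The pairs therefore did not all move one way. With the smallest possible p at 0.1, none could pass.

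**Figure D5:**
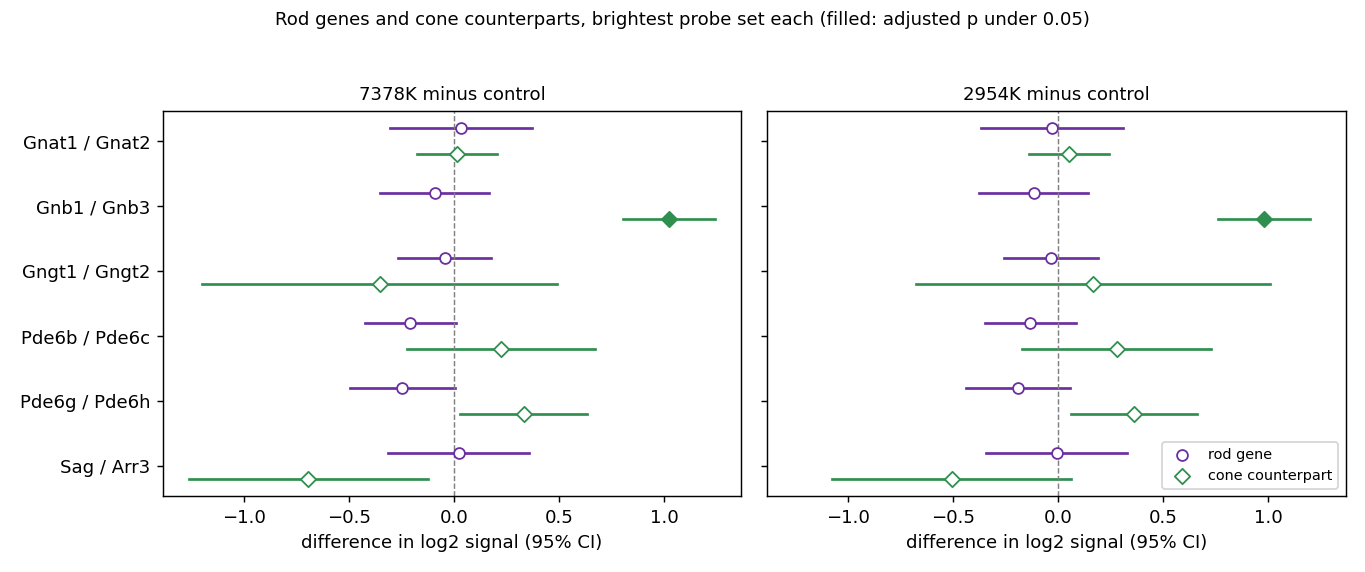
Difference in log2 signal from control with 95% confidence intervals from limma, for 6 rod genes (circles) and their cone counterparts (diamonds), brightest probe set each, in 7378K (left) and 2954K (right). Gnb3 is the only filled symbol, past the adjusted threshold in both panels at 1.02 and 0.98.

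Genes that work beside the cascade gave more calls in 7378K against control. Of 6 genes of the rod channel and disc, 4 fell. Cngb1 and Cnga1, the subunits of the cGMP-gated channel, differed by −0.71 (adjusted p = 0.0155) and −0.49 (adjusted p = 0.0172). Prph2 and Rom1, structural proteins of the disc rim, differed by −0.80 (adjusted p = 0.0448) and −0.41 (adjusted p = 0.0463). Cngb1 read 11.61, 11.68 and 11.54 in 7378K, 11.78, 12.08 and 12.05 in 2954K and 12.23, 12.54 and 12.18 in control. The list's median was −0.45 in 7378K and −0.30 in 2954K, where 0 of the 6 were called by limma and 3 had an unadjusted p under 0.05. The share fallen among all probe sets was 0.952%. All 4 calls were lost with either the 3′ minus 5′ or the dap covariate, with no intensity trend, without the third arrays and without any single 7378K array, and at most 1 of the 4 held without a control array, whereas with no filter Prph2 and Rom1 were lost. With the 3′ minus 5′ covariate the differences were −0.53 for Cngb1, −0.41 for Cnga1, −0.94 for Prph2 and −0.41 for Rom1. With the dap covariate they were −0.45, −0.39, −1.07 and −0.40 in the same order. On both measures the 7378K arrays lay apart from the control arrays, so these fits cannot tell the LED light and the measures apart.

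Summed over the 6 genes, the linear signal of the channel and disc list was 57921 to 64855 in 7378K, 63410 to 72096 in 2954K and 77816 to 85319 in control arrays, with no overlap between either LED group and control. Summed in the same way over the 9 cascade genes, brightest probe set each, it was 153838 to 178610 in 7378K, 144697 to 191025 in 2954K and 160774 to 188318 in control arrays, and the groups overlapped. A difference between the 2 sets of genes was not tested.

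Of 6 tested genes of shutoff and cGMP synthesis, 1 fell in 7378K against control, Gnb5, the beta subunit that stabilises the complex which speeds GTP hydrolysis by transducin. It read 12.86, 12.96 and 12.86 in 7378K, 12.90, 13.19 and 13.21 in 2954K and 13.38, 13.55 and 13.41 in control, and its difference was −0.55 (adjusted p = 0.024) in 7378K and −0.35 (adjusted p = 0.255) in 2954K. This call was lost with the 3′ minus 5′ covariate (−0.39, adjusted p = 0.17), without the third arrays (−0.55, adjusted p = 0.262) and without any single 7378K or control array (−0.59 to −0.50, adjusted p 0.0557 to 0.139). Rgs9bp, its membrane anchor, differed by −0.46 (adjusted p = 0.0679) and −0.38 (adjusted p = 0.276), and Pdc, phosducin, which binds transducin beta and gamma, by −0.30 (adjusted p = 0.205) and −0.26 (adjusted p = 0.452). In 2954K 0 of the 6 were called, with 2 at an unadjusted p under 0.05 in limma's test.

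In 3 further lists limma called 0 genes in either comparison with control. They were 4 genes that bind or traffic lipid-anchored subunits (Pde6d, Unc119, Arl3 and Aipl1), 5 photoreceptor transcription factors (Crx, Nrl, Otx2, Rorb and Mef2d) and 5 other subunits of trimeric G proteins (Gnb2, Gnb4, Gng13, Gnao1 and Gnaq). At an unadjusted p under 0.05 limma gave 1 gene of each list in 7378K and 1, 0 and 0 in 2954K. Aipl1, a chaperone needed to assemble the phosphodiesterase, differed by 0.26 in 7378K (adjusted p = 0.218) and by 0.27 in 2954K (adjusted p = 0.413). Nrl, the transcription factor that sets rod fate, differed by −0.29 (adjusted p = 0.229) and −0.24 (adjusted p = 0.49), and Mef2d by 0.27 (adjusted p = 0.14) and 0.12 (adjusted p = 0.632). Gnb2 and Gnb4, the beta subunits nearest in kind to Gnb1 on this list, differed by −0.16 (adjusted p = 0.58) and −0.13 (adjusted p = 0.78) in 7378K.

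Among lists of other cells, 7 of 9 microglial genes rose in 7378K and 6 in 2954K against control, and 1 of 6 Müller glia genes rose in 7378K, Aqp4, by 0.58 (adjusted p = 0.0257), a call lost with the 3′ minus 5′ covariate (0.52, adjusted p = 0.165) and without the third arrays (0.55, adjusted p = 0.265). Of the microglial genes, C1qb no longer passed without the third arrays in 7378K (2.31, adjusted p = 0.0528) or in 2954K (2.09, adjusted p = 0.0941), nor did C1qa in 2954K (2.46, adjusted p = 0.0537), with differences about as large as with all arrays (2.36, 2.13 and 2.32). Of 9 tested pigment epithelium and melanocyte genes, 6 lens genes, 2 muscle genes and 7 ganglion and amacrine cell genes, 0 were called in either comparison by limma, with 1 ganglion and amacrine gene at an unadjusted p under 0.05 in 7378K and 0 others.

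The mean of the 9 cascade genes, each centred on its own mean, was −0.04, −0.08 and −0.20 on the 7378K arrays, 0.05, −0.06 and 0.01 on the 2954K arrays and 0.03, 0.11 and 0.18 on the control arrays. Grk1 weighs most in it, with an SD of 0.77 over the arrays. Among 12752 other genes, those whose signal followed this mean most closely over the 9 arrays were Adamtsl2 (Pearson r = 0.94), Rtbdn (r = 0.93), Acadvl (r = 0.92), Yju2 (r = 0.91) and Prxl2b (r = 0.90). Rtbdn encodes retbindin, a flavin-binding protein made by rods, and averaged 12.41 in 7378K, 12.51 in 2954K and 12.71 in control. These correlations describe 9 arrays that share their groups and RNA quality, and they were picked as the highest of many.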

How the data were processed

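Affymetrix Mouse Genome 430 2.0 arrays measured retinal mRNA of 9 pools, 3 per group. The deposited table gave log2 signals, for which the submitters' processing notes name MAS5 and affy, with no version. On each array, 2 raised to the deposited log2 value had a 2% trimmed mean of 500, so that arrays had been scaled to a common mean and not normalised in distribution. No detection calls were used, so signal over background was not known, and precision rests on the number of arrays.

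Probe sets were named by the platform annotation; 34945 of 45101 had 1 symbol. The 27009 probe sets that were not controls and reached the 40th percentile of means (5.91) were fitted with limma 3.58.1 in R 4.3.3, with 1 mean per group, all 9 arrays, 6 residual degrees of freedom and eBayes with an intensity trend. Benjamini-Hochberg adjustment ran over all 27009 within each comparison, and a probe set was called at an adjusted p under 0.05. Per the labels the pools were biological replicates, and p-values measure the spread between pools.

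Differences within an array were set against control by exact permutation, two-sided, a test added after the data had been seen. Text names all member probe sets, all cone counterparts, called genes of the other lists or those with the smallest p, and the 5 genes nearest in pattern. For other lists the brightest probe set of each gene was used. The members and lists were chosen with earlier results of these data known. Nr2e3 and Gucy2f were not analysed here. Replicate numbers were not used to pair arrays, since correlations of same-numbered arrays did not all pass 0.1. Alternatives covered normalisation, filters, covariates, the arrays fitted and the replicate number. Figures were drawn with matplotlib 3.10.9.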

Additional observations from a re-analysis of the deposited data

How the results depend on the processing

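The count of cascade probe sets called in 7378K against control was 1 as fitted and also 1 after quantile normalization, with no filter and with a stricter filter. It was 0 with 1 probe set per gene, where 1454696_at alone stands for Gnb1, and 0 (with 198 calls among all probe sets, against 594) without the intensity trend, 0 (173) with the 3′ minus 5′ covariate, 0 (92) with the dap spike-in covariate and 0 (88) without the third array of each group. It was 5 (4806) with only the 2 groups compared, where Gngt1 1425168_at (adjusted p = 0.00593), Pde6g 1450453_a_at (adjusted p = 0.0102), Grk1 (adjusted p = 0.0185) and Pde6a (adjusted p = 0.0228) were called beside Gnb1 1417432_a_at. Leaving out 1 array at a time gave 0 to 5 cascade calls and 136 to 3401 in all, with 5 without 2954K 1, 4 without 2954K 2, 1 without 2954K 3 and 0 in the other 6 fits. In 2954K against control all calls numbered 148 as fitted, 85 without the trend, 50 without the third arrays, 39 with only the 2 groups compared and 76 to 2154 with 1 array left out, and the cascade calls 0 to 2. In 7378K against 2954K leaving out 1 array gave 0 to 334 calls in all, 334 of them without 2954K 1, and 0 in the cascade. Calls in 7378K against control were most numerous in the fits without 2954K 1, without 2954K 2 or without the whole 2954K group, and the cause was not tested. With the replicate block 2 cascade probe sets were called in 7378K against control (1273 in all), Gngt1 1425168_at (adjusted p = 0.0408) joining Gnb1. Same-numbered arrays deviated together at correlations of 0.01 to 0.30 with 2 of 9 over 0.1, and were not taken as pairs because 7 of the 9 were not over 0.1. The best match had the same number in 16 of 18 choices, which is a hint in the data of a shared effect of the number that the labels do not give. Single results were counted once in each alternative fit, and 2476 kept their status, which for most meant not called in either fit. A call was lost in 76, gained in 37 and reversed in 0, while signs of some uncalled differences varied, not only of those near 0. Grk1 in 2954K against control ran from −0.83 to 0.22 and was below 0 in 15 of 18 fits. The losses concern only results called as fitted, and Gnb1 1417432_a_at in 7378K against control lost its call in 10 of 18 fits. Two-array groups assume that a group's spread equals the common one, and depth cannot be given for arrays without detection calls.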
